A study of Mus musculus with 4 samples.

Results

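The cytosolic ribosomal protein genes form a module of 86 genes, 52 of the large and 34 of the small ribosomal subunit, out of 32285 genes in the files. They were chosen by symbol alone: every symbol of Rpl or Rps followed by a digit, together with Rplp0, Rplp1, Rplp2 and Rpsa, and without the S6 kinases (Rps6k) and pseudogenes. A UMI was seen in all 86 members, and in 22600 genes of the whole files. Close paralogs (Rpl3l, Rpl7l1, Rpl10l, Rpl22l1, Rpl36al, Rpl39l, Rps27l and Rps27rt) and Rps19bp1, which encodes a binding partner of Rps19 and not a ribosome subunit, fall under the same rule and are described apart.

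Gene expression was measured in single pancreatic islet cells of male mice aged 8 weeks, with 1 library for each of 4 groups. The Cre-negative library came from mice homozygous for floxed Tet2 and floxed Tet3 that carried no Pdx1-Cre. The Cre-positive library came from mice with the same floxed alleles and Pdx1-Cre, a Cre recombinase driven by a promoter that is active in the pancreatic epithelium and not in endothelial or immune cells. The other libraries came from offspring of control mothers and from offspring of mothers with intrauterine hyperglycemia (IHG offspring), and their labels name no floxed allele. Tet2 and Tet3 encode enzymes that oxidise methylated cytosine. Islets were released with collagenase, picked by hand, cultured and dissociated with trypsin, and cells were caught in microwells with barcoded beads that tag the end of the transcript next to the poly(A) tail (SeekOne MM). The number of mice behind each library is not stated.

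Each group was a single library without a replicate. Groups were therefore not tested against each other, and every difference below compares libraries. The interval given beside a ratio is a 95% exact interval that covers the counting error of UMIs only, and reads amplified from few molecules or differences between mice are outside it. A gene was called when it stood at 20 CPM (counts scaled to a fixed library total of 1e+06) or more in at least 1 library of the pair and differed at least 1.5-fold. Between 6421 and 16459 barcodes per library held 52489846 to 109110492 UMIs, at a median of 5334 to 7373 UMIs per barcode, and each pair of libraries shared 58 to 246 barcodes. Cells were clustered without the 86 members, and clusters were named from marker lists. Beta-like cells held all 8 beta markers at 20 CPM or more in all 4 libraries, whereas 0 of 7 endothelial and 0 of 8 macrophage markers reached that level in them. Hormones of other endocrine classes did reach it. Sst stood at 380 to 3259 CPM in beta-like cells, highest in the Cre-negative library. Gcg stood at 292 to 2467 CPM, highest in the Cre-positive library. The libraries stood apart within classes: of 3225 beta-like cells of the Cre-negative library, 2706 lay in cluster 3, and of 2757 in the Cre-positive library, 2059 lay in cluster 2. In this class the Cre-negative library stood farthest from the rest, and Dlk1, an imprinted gene of endocrine cells, stood at 204 CPM in its beta-like cells against 1.09 to 10.7 CPM in the other 3. Tet2 stood at 46.5, 33.4, 40.2 and 32.6 CPM and Tet3 at 34.4, 26.1, 30.2 and 26.1 CPM in beta-like cells of the Cre-negative, Cre-positive, control and IHG libraries. Where the floxed exons lie relative to the counted transcript ends is not stated, so these levels do not check the labels.

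The ribosome is the machine that reads messenger RNA into protein. Its small subunit holds and decodes the message, and its large subunit joins the amino acids. Ribosomal protein messages are among the most abundant in every cell, and they start with a terminal oligopyrimidine tract, a C followed by an unbroken run of C and T, through which the kinase complex mTORC1 and the RNA-binding protein Larp1 control their translation. In beta cells the protein synthesis that ribosomes carry is dominated by preproinsulin, whose translation glucose stimulates.

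The start sites of 5 members are shown as examples of the patterns in which libraries separate below: Rpl28, Rps9 and Rplp2 were lowest in the Cre-negative library, as were Rpl8 and Rps14, which are not shown, and Rps13 and Rps15a were lower in both floxed libraries than in both offspring libraries. Each line gives 40 bases before and 20 bases from the annotated start, from the RefSeq promoter table of GRCm38.p6, on the gene's own strand, with the pyrimidine run nearest the start in capitals.
Rpl28, chr7:4792925-4792984, plus strand: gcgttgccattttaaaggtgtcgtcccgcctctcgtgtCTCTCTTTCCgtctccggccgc
Rps9, chr7:3704001-3704060, plus strand: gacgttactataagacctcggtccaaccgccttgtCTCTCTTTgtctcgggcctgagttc
Rplp2, chr7:141447611-141447670, plus strand: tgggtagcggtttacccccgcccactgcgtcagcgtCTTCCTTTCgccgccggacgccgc
Rps13, chr7:116334171-116334230, minus strand: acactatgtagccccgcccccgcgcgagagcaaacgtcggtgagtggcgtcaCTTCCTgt
Rps15a, chr7:118116128-118116187, minus strand: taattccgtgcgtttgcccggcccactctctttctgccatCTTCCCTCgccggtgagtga

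The 5 shown lie on chromosome 7, while Rpl8 lies on chromosome 15 and Rps14 on chromosome 18. On chromosome 7, Rpl28 and Rps9 lie near each other, and so do Rps13 and Rps15a. Whether position plays a part in these patterns was not tested. A run of this kind, a C followed by at least 4 bases that are each C or T on the gene's own strand, began within 20 bases of an annotated start in 53 of the 66 members that the table holds (80.3%), and in 53.3% of its 27025 genes. The annotated start itself was a C followed by at least 4 such bases in 14 members (21.2%) and in 3.01% of all genes, also where the run reached further upstream, as in Rpl28 and Rplp2. The motif CCGGAAG, searched on both strands over 300 bases around the start, occurred in 26 members (39.4%) and in 9.93% of all genes. On the other strand it reads CTTCCGG, which itself holds a short pyrimidine run, so these searches overlap in part. A match is a match of letters and no evidence of a binding site.

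Ribosomal protein messages took up 3.25 to 4.19% of all UMIs in beta-like cells, the lowest range of the 6 main classes, and 9.72 to 11.0% in macrophage-like cells, the highest. In beta-like cells the share was 3.46% in the Cre-negative, 4.19% in the Cre-positive, 3.39% in the control and 3.25% in the IHG library. In alpha-like cells it was 8.24, 7.79, 6.48 and 6.78% in the same order. Every library held a higher share in alpha-like than in beta-like cells, with ratios of 2.38, 1.86, 1.91 and 2.08 (mean 2.06 ± 0.236, SD, n = 4 libraries). With 4 pairs, an exact two-sided test of signs cannot go below p = 0.125, so no test was made.

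PP-like cells held 5.09 to 6.82%, delta-like cells 4.27 to 5.60% and endothelial-like cells 4.87 to 6.10%. Hormone messages, which enter the same total, took up 27.0 to 37.0% of UMIs in beta-like cells and 0.845 to 16.6% in endothelial-like cells. With hormone and mitochondrially encoded genes taken out of the total, the alpha-like cells still held more than the beta-like cells of the same library, by 1.73- to 1.96-fold. Endothelial-like cells then stood at 0.891 to 1.16 times the beta-like share, so the order of these 2 classes depended on the denominator and the library.

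**Figure D1:**
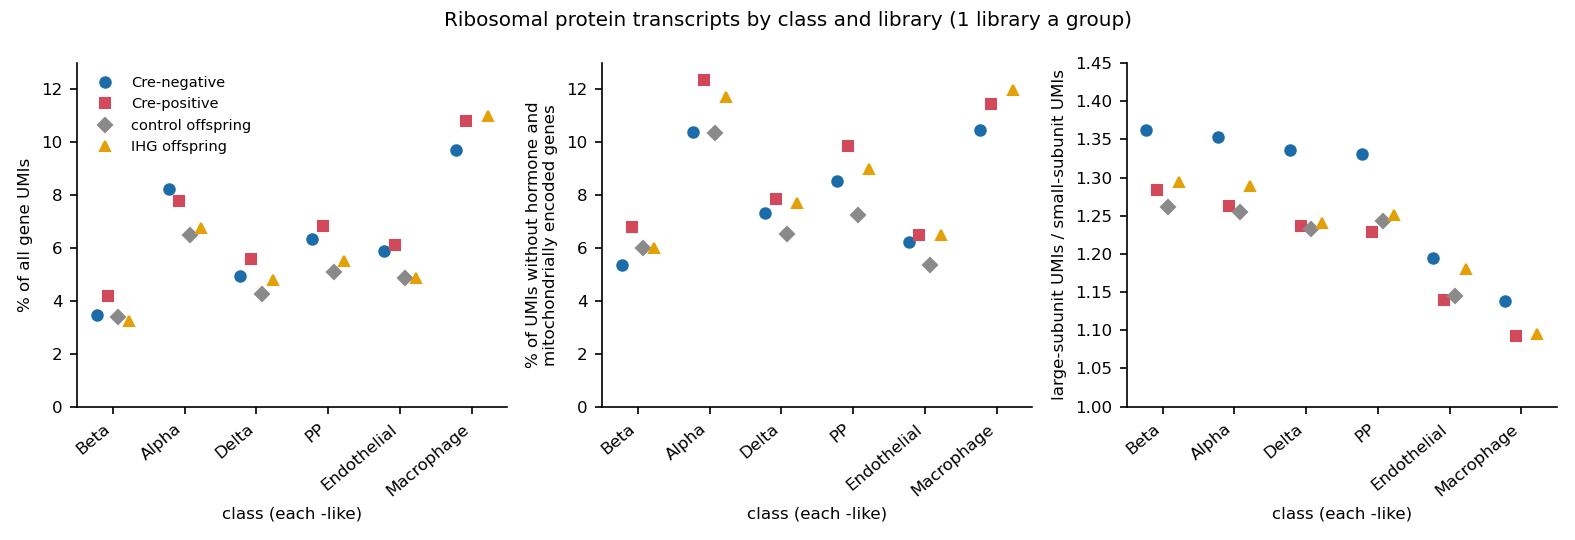
Share of UMIs from the 86 ribosomal protein genes (percent of all gene UMIs, left, and percent without hormone and mitochondrially encoded genes, middle) and the ratio of large- to small-subunit UMIs (right), for 6 cell classes (horizontal axis) and 4 libraries (points, 1 per library). The macrophage-like class of the control library, with under 50 cells, is left out. Macrophage-like and alpha-like cells lie highest in the left panel, and the Cre-negative library lies highest within each class in the right panel.

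The large subunit gave more UMIs than the small in every class and library with 50 or more cells, with ratios of 1.09 to 1.36 over 31 combinations. It also has more genes in the module, 52 against 34, so these sums do not show a higher level per gene. Endocrine classes stood at 1.23 to 1.36, endothelial-like cells at 1.14 to 1.19 and macrophage-like cells at 1.09 to 1.14. Within each of the 6 classes the Cre-negative library had the highest ratio. In beta-like cells it was 1.36, against 1.28, 1.26 and 1.29 in the Cre-positive, control and IHG libraries.

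Single beta-like cells varied more than the libraries. Between the 10th and the 90th percentile of cells, member shares ran from 2.41 to 5.20% (Cre-negative), 3.16 to 5.05% (Cre-positive), 2.59 to 4.06% (control) and 2.41 to 4.22% (IHG). These ranges overlap across all 4 libraries, and the Cre-positive library has the highest lower end. A beta-like cell showed a median of 65 to 75 of the 86 members with at least 1 UMI, and the control library, whose beta-like cells were shallowest at a median of 5834 UMIs, gave the lowest of these medians.

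Levels of single members spread widely. In beta-like cells 81 members had a mean of 20 CPM or more over the 4 libraries, 74 had 100 or more and 38 had 500 or more, and the median was 431 CPM. These are CPM from transcript ends, not divided by length, and the 10 highest members gave 23.8% of all member UMIs. Highest was Rpl41, which encodes a peptide of the large subunit, at 938, 1274, 1181 and 1194 CPM in the Cre-negative, Cre-positive, control and IHG libraries. The next were Rpl17 (mean 998 CPM), Rps29 (946), Rpl37 (859) and Rpl27a (783). Rpl17 was higher in both floxed libraries (1121 and 1170 CPM) than in both offspring libraries (873 and 830 CPM).

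The lowest members were those that are not standard subunits of a somatic ribosome. Rpl3l, known from heart and skeletal muscle, had 5 UMIs among all 40478 cells, and the testis paralogs Rpl10l and Rpl39l had 10 and 30. The 10 UMIs of Rpl10l all fell in the Cre-positive library, and 15 of the 30 of Rpl39l did too. Rps19bp1 averaged 9.19 CPM and Rps27rt 16.4 CPM in beta-like cells.

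Members whose transcript ends resemble other transcripts are hard to count. Of the 86, 44 shared over 50% of the 50-base stretches in their last 300 bases with other annotated transcripts, and 27 shared none. The shared part was 0% for Rpl28, Rps3, Rps15a and Rpl14, 6.37% for Rplp2, 22.3% for Rps14, 25.1% for Rpl8 and 34.7% for Rps9. It was 56.6% for Rps19, 62.9% for Rpl41, 65.3% for Rpl38, 67.7% for Rps10, 88.0% for Rps13, 88.4% for Rps27rt and 100% for Rpl10. Among the paralog pairs described next it was 70.1% for Rpl36al and 100% for Rpl36a, 63.3% for Rpl22l1 and 0% for Rpl22, 2.39% for Rpl7l1 and 74.1% for Rpl7, and 21.9% for Rps27l and 100% for Rps27. Levels of the members with a large shared part, and the paralog shares that rest on them, are uncertain to that extent. How reads shared by such members were assigned is not stated.

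Several members took a different part of the module in different classes, and the pairs of paralogs differed most. Rpl36al and Rpl36a encode near-identical proteins of the large subunit. Rpl36al gave 52.9 to 58.8% of the UMIs of this pair in beta-like cells, 38.4 to 44.4% in alpha-like cells, 24.7 to 29.0% in macrophage-like cells and 19.8 to 38.8% in endothelial-like cells. In delta-like cells Rpl36al gave 42.7 to 52.4% of the pair, and in PP-like cells 38.62 to 50.04%. The beta-like range overlapped none of these ranges, but the upper end of the delta-like range lay close to it. The highest endothelial value, 38.8%, came from the IHG library, whose endothelial-like cells also held most beta-cell messages (Ins2 at 83180 CPM, against 4737 to 22981 CPM in the other 3 libraries); the part of those messages in this value was not tested.

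Rpl22l1, a paralog of Rpl22 with known roles in blood cell development, gave 51.1 to 55.9% of its pair in beta-like cells and 52.1 to 61.6% in alpha-like cells. It gave 32.9 to 45.3% in endothelial-like and 20 to 34.2% in macrophage-like cells, below every endocrine value. In macrophage-like cells of the Cre-negative library this rests on 150 UMIs of the pair (20%, 95% exact interval 13.9 to 27.3%). Rpl7l1 gave 9.10 to 10.9% of its pair with Rpl7 in beta-like cells and 4.05 to 5.56% in alpha-like cells. Its range in endothelial-like cells, 6.71 to 10.0%, overlapped that of beta-like cells. Rps27l, a target of p53, gave 7.64 to 8.67% of its pair with Rps27 in beta-like and 2.66 to 5.53% in endothelial-like cells. Its range in PP-like cells, 5.85 to 8.07%, overlapped that of beta-like cells.

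**Figure D2:**
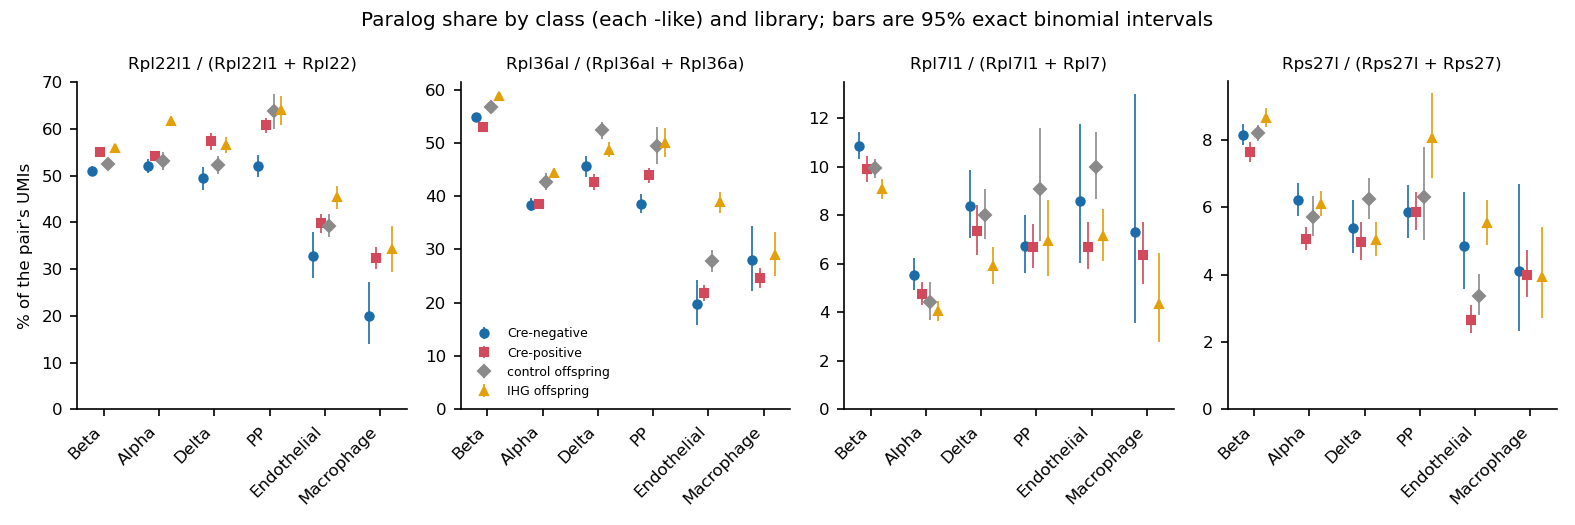
Share of the UMIs of a paralog pair (vertical axis, percent) that came from the paralog, for Rpl22l1, Rpl36al, Rpl7l1 and Rps27l, by cell class (horizontal axis) and library (points, with 95% exact intervals for counting error). Rpl36al lies between 52.9 and 58.8% in beta-like cells and below 45% in alpha-like, endothelial-like and macrophage-like cells. In delta-like cells it reaches 52.4%, close to the beta-like range.

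Beyond the paralogs, Rps19 of the small subunit, mutated in Diamond-Blackfan anaemia, was 60.3, 70.2, 69.0 and 69.1 CPM in beta-like cells of the Cre-negative, Cre-positive, control and IHG libraries and 201, 183, 166 and 143 CPM in endothelial-like cells. Relative to all member UMIs it was higher in endothelial-like than in beta-like cells by 0.46 to 0.97 on the log2 scale. The difference had this direction in 4 of 4 libraries.

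Rpl10, a protein that joins late in the assembly of the large subunit, took a lower part of the module in endothelial-like than in beta-like cells, at log2 differences of -1.10 to -0.66. Rpl41 differed by -0.96 to -0.62 and Rpl38, known for its role in the translation of Hox messages, by -0.67 to -0.37. Macrophage-like cells had Rpl41 lower still, at -1.45 to -1.18, and Rps19 higher by 0.15 to 0.49, in the 3 libraries with enough of these cells. The distance between classes in these members was thus seen in each library, while its size varied between libraries.

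**Figure D3:**
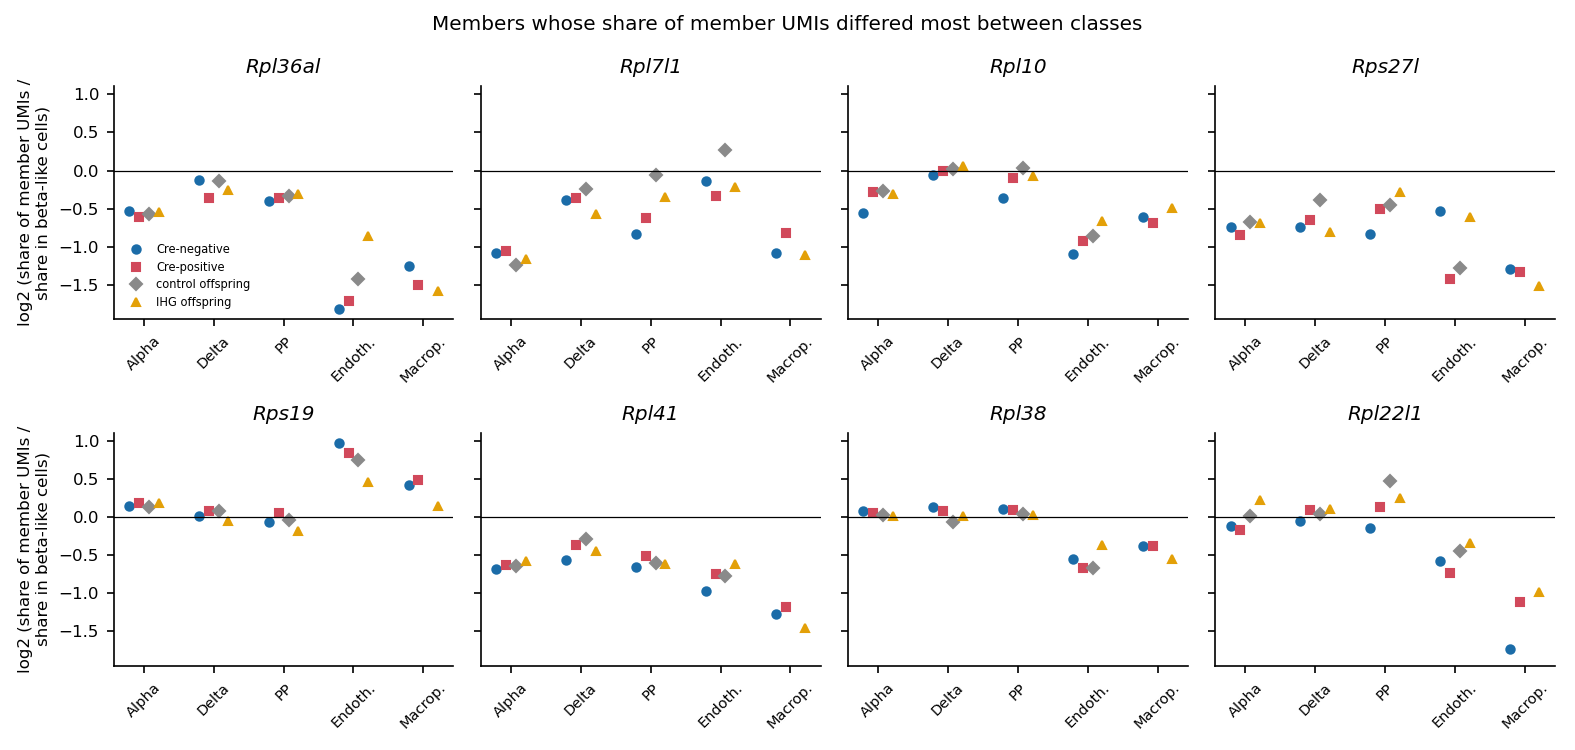
Log2 ratio of a member's share of all member UMIs in each cell class to its share in beta-like cells of the same library (points, 1 per library), for 8 of the 10 members with the largest spread over classes. Rpl36al lies lowest in endothelial-like cells (-1.82 to -0.86), and Rps19 lies above 0 there in all 4 libraries (0.46 to 0.97).

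The comparison of the Cre-positive with the Cre-negative library asks how islet cells differ when Tet2 and Tet3 are deleted in the pancreatic epithelium. In beta-like cells the summed ribosomal protein messages were 1.21-fold higher in the Cre-positive library (counting interval 1.209 to 1.215). Of 82 members that passed the level filter, 16 were at least 1.5-fold higher and 0 lower, where 6.97% of all 6468 genes tested were higher and 19.6% lower. The median log2 ratio was 0.19 for the members and -0.22 for all genes. Both subunits had called members, 8 of 49 in the large (median 0.18) and 8 of 33 in the small (median 0.24).

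The largest ratios belonged to Rpl8 and Rpl28, both of the large subunit. Rpl8 (ENSMUSG00000003970, GRCm38 chr15:76904078-76906314, plus strand) lies close to the site where peptide bonds form. It stood at 98.1 CPM in Cre-negative, 333 in Cre-positive, 237 in control and 238 in IHG beta-like cells. The Cre-positive value was 3.40-fold the Cre-negative value (3.27 to 3.53), and the Cre-negative library lay below all others.

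Rpl28 (ENSMUSG00000030432, chr7:4792874-4795066, plus strand), a large-subunit protein that bacteria lack, stood at 118, 387, 256 and 237 CPM in the same order. Its ratio between the floxed libraries was 3.27 (3.16 to 3.39). Against the control offspring in place of the Cre-negative library, the Cre-positive log2 ratio of Rpl8 fell from 1.76 to 0.49 and that of Rpl28 from 1.71 to 0.60. Their size in this comparison thus rests on the low values of the Cre-negative library.

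Among the small-subunit members, Rps14, the gene whose loss underlies the anaemia of a myelodysplastic syndrome, stood at 290, 819, 519 and 469 CPM, a 2.82-fold ratio between the floxed libraries. Rps9 stood at 241, 578, 418 and 435 CPM (2.39-fold). Rps3, which lies where the message enters the ribosome, stood at 304, 599, 395 and 476 CPM (1.97-fold). In each of them the Cre-negative library was lowest and the Cre-positive highest. Rps18 was 1.83-fold and Rps10, a protein that is ubiquitinated when ribosomes collide, 1.76-fold higher.

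The acidic stalk of the large subunit, which recruits translation factors, has 3 members in the module, and all were called in beta-like cells. In the other classes compared below, only Rplp2 of the 3 was called. Relative to all member UMIs, only Rplp2 of the 3 passed 1.5-fold in beta-like cells. Rplp2 stood at 131, 338, 298 and 284 CPM (2.58-fold between the floxed libraries), Rplp1 at 131, 233, 190 and 167 CPM (1.77-fold) and Rplp0 at 657, 1023, 709 and 691 CPM (1.56-fold). For Rplp2 the Cre-negative library stood apart from the other 3, while for Rplp0 the Cre-positive library did. Rpl36, Rps28, Rpl13a and Rps15 were also called, at 1.51- to 1.57-fold.

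No member was called lower. The lowest ratios belonged to Rps27rt (1.44-fold lower, 1.29 to 1.60), Rpl23a (1.12-fold lower), Rpl10a (1.11-fold lower) and Rpl7l1 (1.10-fold lower). Of the 82 members, 54 lay within 0.32 of equality on the log2 scale, 27 lay above that bound and 1 lay below it. In all, 74 members had a ratio above 1.

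**Figure D4:**
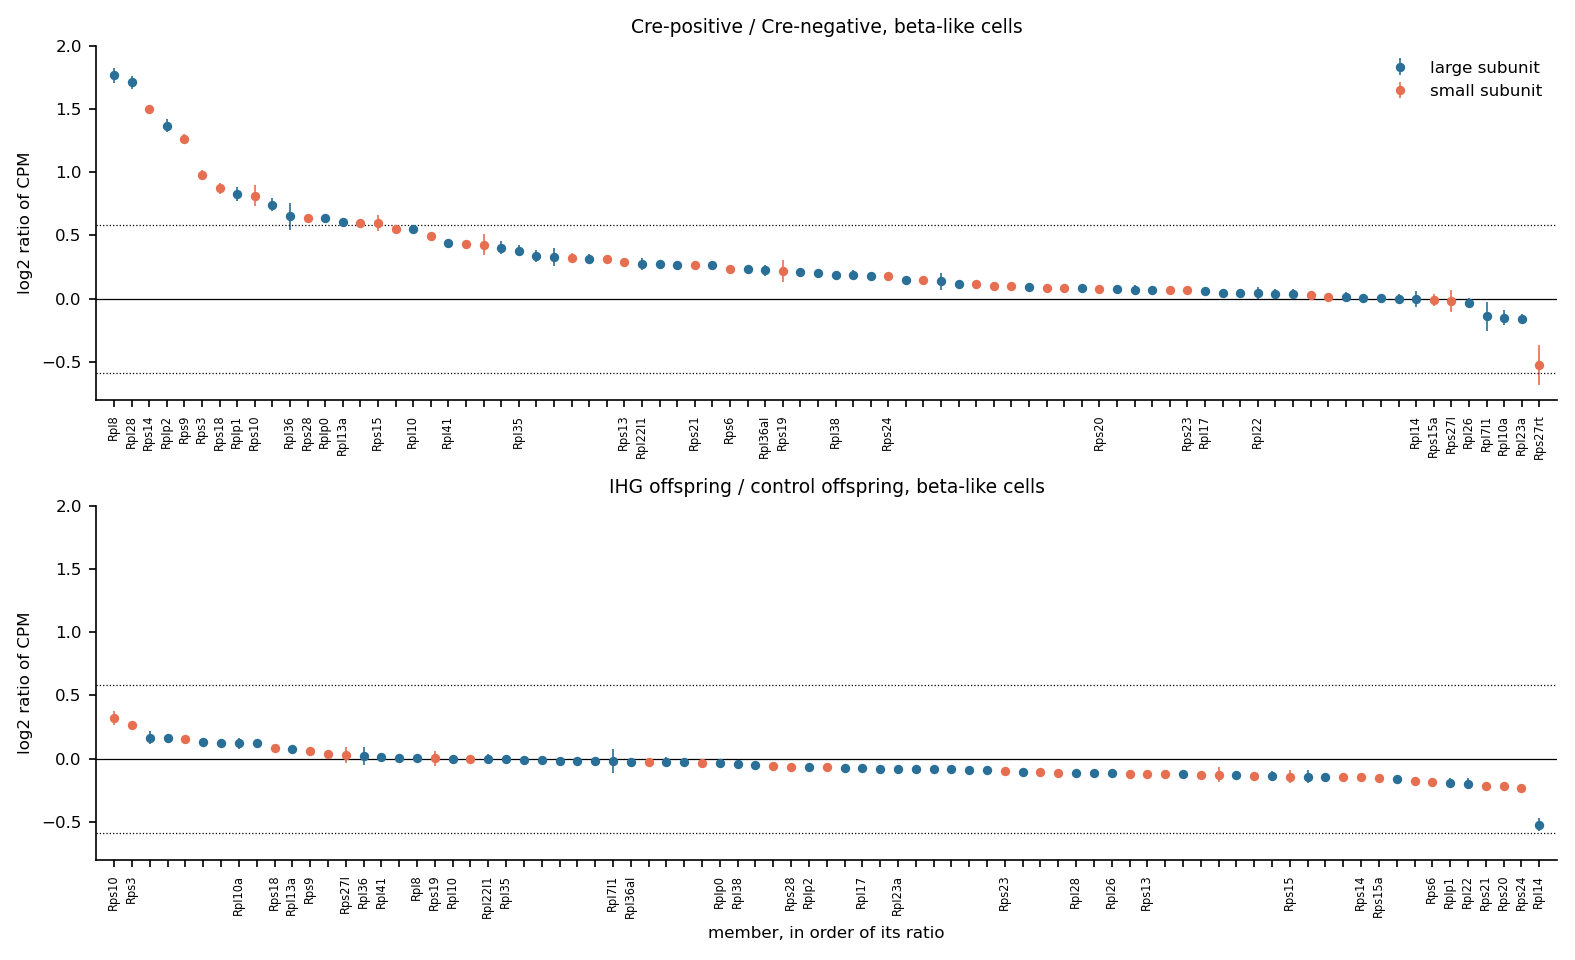
Log2 CPM ratio in beta-like cells of each tested ribosomal protein gene (points, ordered by ratio, coloured by subunit, with 95% counting intervals and names for members described in the text), for Cre-positive against Cre-negative and IHG against control offspring. Dotted lines mark 1.5-fold; 16 members lie above the upper line in the first comparison and 0 lie outside the lines in the second.

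These values depend on what the counts are scaled to, because the median of all genes was shifted in this comparison. With median-of-ratios scaling, which moves all log2 ratios up by the size of that shift, 24 members were called higher (12.0% of all genes) and the summed log2 ratio was 0.49 in place of 0.28. As a share of the module's own UMIs, 7 members were higher and 1 lower (3.83% and 41.1% of all genes), and the median log2 ratio of the members was -0.08. Stress and immediate-early genes differed between the same libraries: Hspa1a stood at 1732 and 3948 CPM and Atf3 at 8.26 and 94.4 CPM in Cre-negative and Cre-positive beta-like cells, with mitochondrially encoded UMIs at 8.34 and 8.08%. Their part in the member ratios was not tested. The 6 delta markers summed to 3448 CPM in Cre-negative and 736 CPM in Cre-positive beta-like cells, and the 7 alpha markers to 1873 and 4053 CPM. Without cells rich in hormones of other classes, 17 members were higher and the summed log2 ratio was 0.31.

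Members of large ratio in beta-like cells were also called in classes outside the Pdx1 lineage. Rpl8, Rpl28, Rps14, Rplp2 and Rps9 passed 1.5-fold on the high side in 6 of 6 classes, endothelial-like and macrophage-like cells among them. Of all genes, 4.85% (alpha-like) to 18.1% (macrophage-like) passed on this side in a single class. The share of all genes that passed in several classes at once is not given here, so these counts over classes have no background. In endothelial-like cells Rpl8 stood at 152, 467, 341 and 318 CPM and Rpl28 at 259, 719, 435 and 364 CPM in the Cre-negative, Cre-positive, control and IHG libraries. Macrophage-like cells without Cre had Rpl8 at 165 CPM and those with Cre at 589 CPM (3.58-fold, 2.52 to 5.26, from 59 and 682 cells). In both classes the Cre-negative library was lowest and the Cre-positive highest. For macrophage-like cells this order covers 3 libraries, because the control library had under 50 of these cells.

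Alpha-like cells had Rpl8 at 233, 580, 435 and 434 CPM and Rpl28 at 247, 683, 473 and 479 CPM. In delta-like cells Rpl8 was 137, 409, 283 and 307 CPM, and in PP-like cells 178, 509, 364 and 383 CPM. The order of the libraries at their ends was the same in each of these classes. Rps14 ranged from 2.72- to 3.08-fold and Rps9 from 1.85- to 2.39-fold over the 6 classes, and Rps3 and Rps18 passed 1.5-fold in 5 of 6.

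Outside beta-like cells, fewer members were called. Alpha-like cells had 5 higher and 1 lower of 82 (4.85% and 38.3% of all genes), with a summed log2 ratio of -0.08 and a median of -0.19 against -0.47 for all genes. That sign turned with the scaling: the summed value was 0.25 without hormone and mitochondrially encoded genes in the total and 0.39 with median-of-ratios scaling, where 16 members were higher and 0 lower (12.4% and 7.3% of all genes). It was 0.013 with no doublets removed, a setting in which cells were clustered anew and the class did not hold the same cells. The half-width of its counting interval was then 0.012, against 0.0049 in the main setting. Glucagon and other hormones took up 13.4% of alpha-like UMIs without Cre and 32.1% with Cre. The 8 beta markers summed to 4081 and 29803 CPM in alpha-like, 15707 and 69556 CPM in delta-like, 4091 and 51038 CPM in PP-like, 6726 and 8472 CPM in endothelial-like and 23597 and 5488 CPM in macrophage-like cells of the Cre-negative and Cre-positive libraries, and their part in the member ratios of these classes was not tested.

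Delta-like cells had 8 members higher and 0 lower (8.9% and 16.3% of all genes; median 0.11 against -0.18) and PP-like cells 9 and 0 (7.29% and 28.3%; median 0.04 against -0.31). Endothelial-like cells had 8 higher and 1 lower (14.4% and 30.5%; median -0.05 against -0.26), and the lower member was Rps27l, at 79.4 and 36.0 CPM. Macrophage-like cells had 11 of 83 higher and 1 lower (18.1% and 34.5%; median 0.09 against -0.25), and the lower member, Rps19bp1, had a counting interval that included equality (2.10-fold lower, with bounds of 0.516 and 6.36). The shares of members called higher stood near the background of all genes in delta-like cells and below it in endothelial-like and macrophage-like cells, and the member medians stood above the median of all genes in all 6 classes.

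Taken as a share of the module's own UMIs, which removes any change of the whole module, 8 members stood lower in the Cre-negative library than in any other library in each of 5 classes (beta, alpha, delta, PP and endothelial-like). Rpl8 took up 0.257 to 0.283% of member UMIs in the 5 Cre-negative classes and 0.641 to 0.794% in the 15 values of the other libraries, a gap of 2.26-fold. Rplp2 had a gap of 1.73-fold, Rps9 of 1.55-fold, Rps14 of 1.53-fold and Rpl28 of 1.43-fold (0.248 to 0.440% against 0.627 to 1.18%). Rps10, Rps3 and Rps18 had gaps of 1.07- to 1.23-fold. Of all 9491 genes at 20 CPM or more in at least 1 of these classes, 18 (0.19%) stood below in this way on the same scale. These 18 include the 8 members, and few genes that vary between classes can stand below in this way.

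In the other direction, 4 members took a higher share in the Cre-negative library than in any other: Rpl26 (0.890 to 1.03% against 0.691 to 0.763%), Rpl17, Rpl23a and Rps23, with gaps of 1.00- to 1.17-fold. Of all genes 14 (0.148%) stood above, these 4 members included. The Cre-positive library had Rps14 above all others (1.91 to 2.21%) and Rpl10a below. Counting these members, 2 of all genes (0.0211%) stood above and 12 (0.126%) below. The IHG library had Rps10 above all others, at 0.263 to 0.306% of member UMIs against at most 0.242%. Rps10 itself was the 1 gene of all genes that stood above there (0.0105%).

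A different division was seen in Rps13 and Rps15a of the small subunit. Rps13 (chr7:116331505-116334195, minus strand) stood at 409 and 499 CPM in beta-like cells of the Cre-negative and Cre-positive libraries and at 734 and 676 CPM in the control and IHG libraries. Its share of member UMIs was 0.853 to 1.23% in the floxed and 1.92 to 2.20% in the offspring libraries over the 5 classes. Rps15a (chr7:118104372-118116188, minus strand) stood at 209, 208, 305 and 275 CPM in beta-like cells, with shares of 0.495 to 0.754% and 0.847 to 1.09%. The floxed and offspring ranges overlapped for neither gene. Of all 9491 genes, 2 stood below in this way (0.0211%), which are these 2 members themselves, and 2 stood above (0.0211%). Strain, allele and batch of these pairs of libraries cannot be told apart.

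**Figure D5:**
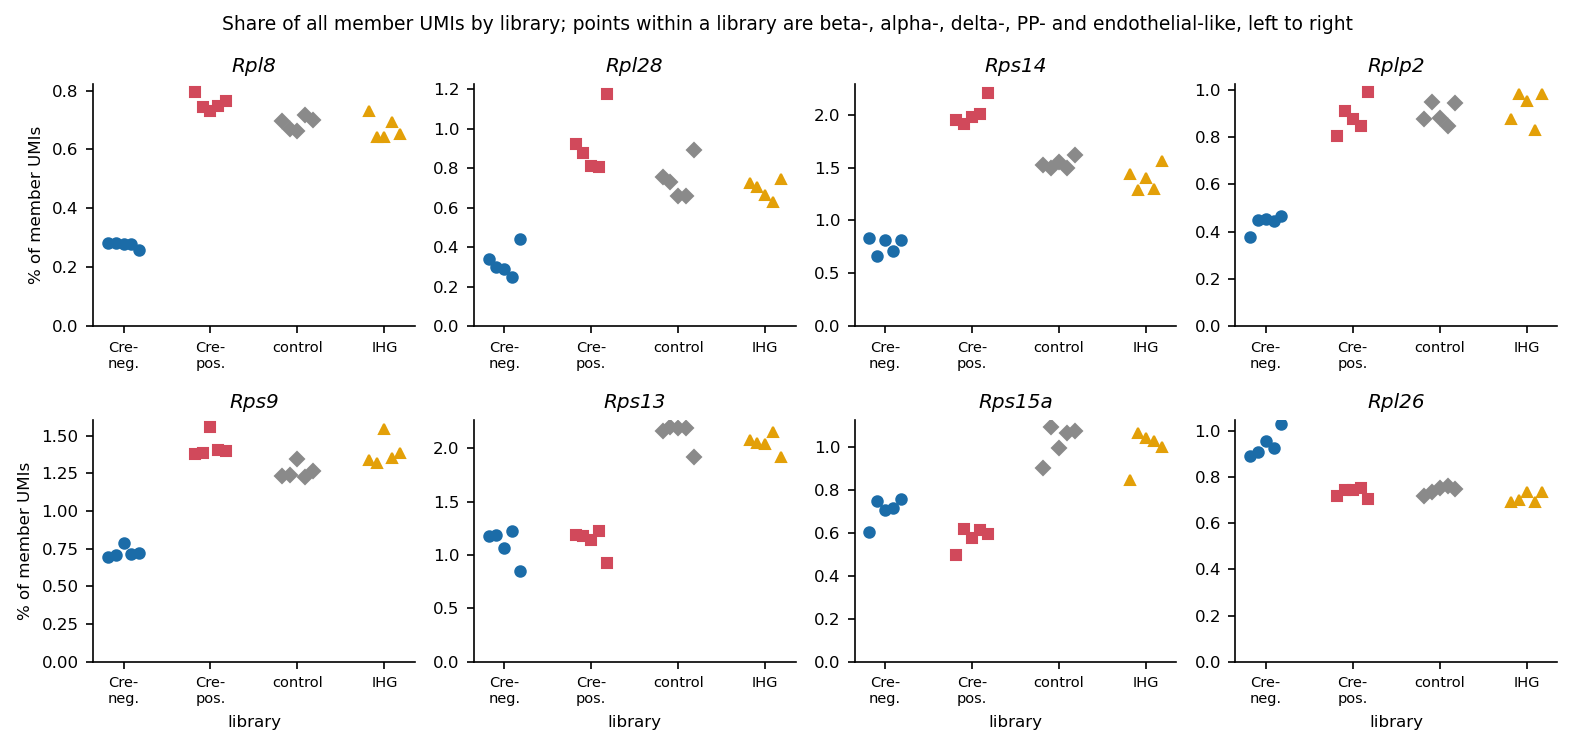
Share of all member UMIs (vertical axis, percent) of Rpl8, Rpl28, Rps14, Rplp2, Rps9, Rps13, Rps15a and Rpl26 in each library (horizontal axis), with 1 point per cell class (5 classes). The Cre-negative library lies lowest for the first 5 genes and highest for Rpl26, and both floxed libraries lie below both offspring libraries for Rps13 and Rps15a.

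The comparisons with other reference libraries share libraries with the one above, and their values are given side by side. The Cre-positive library against control offspring had 5 members higher and 0 lower of 81 in beta-like cells (6.47% and 2.14% of all genes), with a median of 0.29 against 0.08. The 5 were Rpl10 (1.69-fold), Rps14 (1.58-fold), Rps3 (1.52-fold), Rpl28 and Rpl35 (1.51-fold each). Control offspring against the Cre-negative library had 6 members higher and 1 lower of 82 (3.69% and 19.4%), with a median of -0.11 against -0.29. The summed module differed by 0.31 in the former and -0.03 in the latter on the log2 scale, so the Cre-positive beta-like cells held the highest share of the 4 libraries with either reference.

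The genes whose ratios most resembled those of Rpl8 and Rpl28 were sought among 4146 genes over 8 values, the 2 comparisons in beta-, alpha-, delta- and endothelial-like cells. The nearest to Rpl8 was Rpl28 and the nearest to Rpl28 was Rpl8, at a Euclidean distance of 0.31 log2 units, and Rps14 came next for both (0.42 and 0.43). Outside the module the nearest were Ftl1, the ferritin light chain (0.77 from Rpl8), and Cct7, a subunit of the cytosolic chaperonin (0.88 from Rpl8 and 0.80 from Rpl28). Rplp2 and Rps9 were also among the 10 nearest of both. The remaining 5 names over both lists were Ubald1, Snrpd2, Ahsa1, Stip1 and Rassf1.

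Among the 82 members the ratio between the floxed libraries in beta-like cells rose with the GC content of the transcript (Spearman's rho 0.42), and among 6466 genes rho was 0.20. For the IHG comparison rho was 0.25 among 81 members and 0.44 among all genes. These are descriptions across genes of the same libraries, and genes are not independent replicates. Centred on genes of like GC content, 22 members stood past 1.5-fold on the high side and 0 on the low side (11.2% and 10.3% of all genes), and Rpl8 and Rpl28 stood at log2 ratios of 1.81 and 1.90.

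The comparison of IHG with control offspring asks how islet cells differ after hyperglycemia of the mother during pregnancy. In beta-like cells the ribosomal protein messages were close to equal: the sum was 1.04-fold lower (counting interval 1.042 to 1.046) and 0 of 81 members were called in either direction, where 0.578% of all genes were higher and 0.705% lower. The median log2 ratio was -0.07 against -0.05 for all genes, and 79 of 81 members lay within 0.32 of equality. The sum without hormone and mitochondrially encoded genes in the total was -0.0021 on the log2 scale. Rpl8 and Rpl28 had log2 ratios of 0.01 and -0.11.

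The 2 members beyond that bound were Rpl14 and Rps10. Rpl14, on chromosome 9, encodes a protein on the surface of the large subunit and stood at 122, 122, 113 and 79.0 CPM in beta-like cells of the Cre-negative, Cre-positive, control and IHG libraries. The IHG library was lowest, 1.43-fold below the control library (1.38 to 1.49). In alpha-like cells it stood at 330, 284, 282 and 204 CPM, again lowest in the IHG library (1.38-fold, 1.29 to 1.47), and it was 1.26-fold lower in PP-like and 1.24-fold lower in endothelial-like cells. Delta-like cells had 153 and 152 CPM in the control and IHG libraries.

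Rps10 stood at 70.4 and 88.2 CPM in control and IHG beta-like cells, a ratio with a counting interval of 1.20 to 1.30. Rps3 followed at 395 and 476 CPM, 1.21-fold higher (1.19 to 1.23). Both proteins sit on the small subunit and both were higher in the IHG library in 5 of 5 classes, at 1.21- to 1.51-fold for Rps10 and 1.21- to 1.52-fold for Rps3. Members above equality numbered 20 of 81 in beta-like and 40 of 82 in endothelial-like cells. Of 82 members, 62 were above equality in alpha-like, 78 in delta-like and 64 in PP-like cells. The share of all genes higher in every class is not given here, so this count over classes has no background. Rps24, Rps20, Rps21 and Rpl22 were 1.15- to 1.17-fold lower in beta-like cells, and Rps6, the substrate of S6 kinase, 1.13-fold lower.

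In alpha-, delta- and PP-like cells the module stood slightly higher in the IHG library. In endothelial-like cells it was close to equal as a share of all UMIs, but not with the other scalings given below. Alpha-like cells had 0 of 82 called in either direction (1.27% and 7.24% of all genes; median 0.06 against -0.09). PP-like cells had 0 of 82 in either direction too (4.72% and 14.8%; median 0.11 against -0.11). Delta-like cells had 3 higher and 0 lower (4.58% and 5.9%; median 0.15 against 0.00), namely Rps27rt, Rps3 and Rps10. Rps27rt stood at 13.1 and 21.2 CPM in the control and IHG libraries, near the 20 CPM filter. Higher members numbered 1 with no doublets removed (3.99% of all genes). They numbered 0 with libraries clustered on their own (1.64%) and 5 in thinned cells (6.59%). Beta markers summed to 35580 CPM in control and 4146 CPM in IHG alpha-like cells, 164690 and 38682 CPM in delta-like cells and 47126 and 10667 CPM in PP-like cells, and their part in these ratios was not tested.

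Endothelial-like cells had 3 higher and 0 lower (9.9% and 21.6%; median -0.00 against -0.17): Rps27l, Rpl36al and Rps27rt. Rpl36al stood at 142 CPM in the control and 216 CPM in the IHG library. Beta markers summed to 34657 and 128784 CPM in these cells, and hormone messages took up 3.84 and 16.6% of UMIs. The summed log2 ratio was 0.28 without hormone and mitochondrially encoded genes in the total. There 8 members were higher and 0 lower (19.1% and 11.1% of all genes). With median-of-ratios scaling the sum was 0.18, with 4 members higher and 0 lower (14.5% and 14.1%). Without the cluster that also scored for beta markers, chosen after seeing the data, hormone messages fell to 2.62 and 2.63% of UMIs in the control and IHG libraries, 2 members were higher and 0 lower, and the summed log2 ratio was 0.11 in place of 0.01.

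Further lists cover genes that work with the ribosome, and their counts stand beside 6.97% of all genes higher and 19.6% lower in the floxed comparison of beta-like cells. Ribosomal proteins outside the symbol rule had 0 of 2 called, with Rack1 at 342 and 360 CPM and Fau at 110 and 115 CPM in the Cre-negative and Cre-positive libraries. Of 34 initiation factors 4 were higher and 1 lower (median 0.02). Eif2s2, of the factor that brings the initiator tRNA, was 1.87-fold higher, and Eif3d and Eif3k were 1.77- and 1.75-fold higher. Eif4g3, a scaffold of the cap-binding complex, was 1.65-fold lower.

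None of 9 elongation and termination factors was called (0 higher, 0 lower, median 0.07). Eef2, which moves the ribosome along the message, was highest at 397 and 560 CPM, a 1.41-fold ratio. Of 19 other transcripts known to start with a pyrimidine tract, 0 were higher and 1 lower (median 0.07): Gas5, a non-coding host of small nucleolar RNAs, stood at 123 and 61.1 CPM, 2.01-fold lower. Tpt1, another of them, was 1.34-fold higher. Of 23 ribosome biogenesis genes 0 were higher and 1 lower (median 0.07), Mybbp1a at 1.56-fold lower.

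Genes of mTORC1 signalling, which acts on the translation of these messages, had 1 higher and 5 lower of 19 (median -0.14), where all genes had 19.6% lower and a median of -0.22, so these counts show nothing particular to the list. Eif4ebp1, a repressor of cap-dependent initiation, stood at 11.1 and 52.2 CPM in Cre-negative and Cre-positive beta-like cells, 4.70-fold higher. Ddit4, a stress-induced inhibitor of mTORC1, stood at 243 and 42.1 CPM, 5.78-fold lower, and was 116 and 63.0 CPM in the control and IHG libraries. Tsc2, another inhibitor, was 2.45-fold lower and Mtor 2.00-fold lower.

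The mitochondrial ribosomal proteins, encoded by separate genes, had 2 higher and 0 lower of 56 (median 0.06), Mrps18a at 2.80-fold and Mrps18b at 1.53-fold. In the IHG comparison of beta-like cells 0 genes were called among the ribosomal proteins outside the rule, initiation, elongation, pyrimidine-tract, biogenesis and mitochondrial ribosome lists, and 1 of 16 mTORC1 genes was lower, Ddit4 at 1.84-fold. Of 22 genes of RNA quality and stress, 5 were lower and 0 higher in that comparison, where 0.705% of all genes were lower and 0.578% higher, among them Atf3 (1.77-fold) and Malat1 (1.53-fold). Of the 22 tested in the floxed comparison, 8 were higher and 0 lower, where 6.97% of all genes were higher.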

How the data were processed

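The deposited files hold UMI counts per gene and cell barcode that the authors made; the submitters' processing notes name Cell Ranger, Seurat and mm10, with no role given. Members and gene lists were chosen with earlier results of these data known. Cells needed at least 500 genes and no more than 20% of UMIs from mitochondrially encoded genes. The cells with the 6% highest Scrublet doublet scores of each library were removed (scanpy 1.11.5), since the automatic cutoff marked 0.0063 to 4.87%, leaving 40478 cells. Clusters (2000 variable genes without members, 30 principal components, 15 neighbours, Leiden resolution 1, leidenalg 0.10.2) were named from marker lists, and named classes hold cells rebuilt here. UMIs were summed per class and library, classes under 50 cells were left out, and ratios of CPM carry exact conditional intervals (scipy 1.17.1). For thinning, cells were drawn down to 1000 UMIs. The text names Rpl8, Rpl28, the paralogs, the 10 highest and lowest ratios in beta-like cells (3 in other classes), the 10 members of largest spread, the 5 highest and lowest levels, and the 3 highest and lowest ratios of each list, with examples of these printed; some of them are not reported here. Rps10 and Rps3 across classes, Rps13, Rps15a and the other members that separate libraries were picked after their values were seen. Positions and transcripts come from GENCODE vM21. The counting step was tested on simulated counts. Alternatives were other scalings, filters, fold rules, cell filters, clusterings, thinning, GC centring and reference libraries, and, chosen after seeing the data, endothelial-like cells without a mixed cluster.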

Additional observations from a re-analysis of the deposited data

Results flagged for a closer look

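The summed ribosomal protein messages differed in direction between classes in both comparisons, and with 1 library per group these differences were not tested. Between the Cre-positive and Cre-negative libraries the summed log2 ratio was 0.28 in beta-like and -0.082 in alpha-like cells. The alpha-like value turned to 0.25 without hormone and mitochondrially encoded genes in the total, so the opposite signs rest on that denominator. Between IHG and control offspring the summed log2 ratio was -0.061 in beta-like cells and 0.064 in alpha-like, 0.17 in delta-like, 0.12 in PP-like and 0.0054 in endothelial-like cells. The counting interval of the endothelial-like value includes equality. That value was 0.28 without hormone and mitochondrially encoded genes in the total, so its nearness to equality rests on that denominator.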

How the results depend on the processing

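No paired analysis was possible because each group has 1 library and the groups share no replicates beyond it. The summed log2 ratio of members in beta-like cells between the floxed libraries (0.28) was 0.49 with median-of-ratios scaling, 0.34 without hormone and mitochondrially encoded genes in the total, 0.24 with no doublets removed, 0.26 with at most 10% mitochondrially encoded UMIs, 0.45 with each library clustered on its own, 0.19 in thinned cells, 0.29 in the cluster shared most (320 and 119 cells), 0.31 without cells rich in other hormones and 0.31 with control offspring as reference. The count of members higher and lower (16 and 0) was 7 and 1 by share of member UMIs, 27 and 1 at the lower fold rule (0.32 on the log2 scale), 5 and 0 at 2-fold, 20 and 1 in the cluster shared most, and 5 and 0 against control offspring. For IHG against control offspring the sum (-0.06) was -0.0092 with median-of-ratios scaling, -0.0021 without hormone and mitochondrially encoded genes, -0.053 with no doublets removed, -0.092 at 10% mitochondrially encoded UMIs, -0.070 with libraries clustered on their own, -0.0046 in thinned cells, -0.12 in the cluster shared most and -0.072 without cells rich in other hormones. Its counts (0 and 0) were 1 and 0 with no filter and 1 and 1 at the lower fold rule. The cause of these shifts was not tested, apart from the fold rules, which move the counts by construction. The sum in beta-like cells changed sign under none of these settings, but the floxed median of members (0.19) was -0.083 by share of member UMIs, and Rpl8 in the IHG comparison (0.0062) was -0.0022 with libraries clustered on their own, -0.0044 without cells rich in other hormones and -0.10 with GC centring. The alpha-like sum changed sign as given above. The alpha-to-beta ratio of shares (2.06) ranged from 1.86 to 2.15 over its alternatives. Rpl8 kept a log2 ratio of 1.49 to 1.98 in the floxed comparison over the alternatives that keep the Cre-negative library. Leaving out a replicate was not possible with 1 library per group. The macrophage-like class is limited by its cells, 59 in the Cre-negative library.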
